A study of Mus musculus with 8 samples.

Results

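MHC class II and its loading machinery are described here as 9 genes of the 34432 in the deposited table: Ciita, Cd74, H2-Aa, H2-Ab1, H2-Eb1, H2-DMa, H2-DMb1, H2-DMb2 and H2-Oa. They were chosen by symbol. Values come from polyadenylated RNA of macrophages grown from mouse bone marrow, left untreated and taken on day 7 of differentiation. The control group, labelled VAV-cre, has 4 libraries and carries a Cre recombinase driven by Vav, a promoter of the blood lineages. The double knockout group, labelled CDK8CDK19KO, also has 4 libraries; its Cdk8 gene is floxed (Cdk8 flox/flox) for the Vav-iCre and its Cdk19 gene is null. Cdk8 and Cdk19 encode paralogous kinases of the Mediator complex, which links transcription factors to RNA polymerase. The comparison asks which transcripts differ when both kinases are targeted.

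MHC class II molecules are surface dimers of an alpha and a beta chain that show peptides from endosomes to CD4+ T cells. In the endoplasmic reticulum the chains bind the invariant chain, encoded by Cd74, which blocks the groove and guides the complex to endosomes. There proteases cut the invariant chain down to a short fragment, the H2-DM dimer exchanges that fragment for other peptides, and the H2-O dimer restrains H2-DM. Ciita is the transactivator that switches these genes on together, and in macrophages it is known to be induced by interferon gamma. Resting macrophages are known for low class II levels.

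Libraries held 17856715 to 21353207 reads. Cdk19 was lower in every double knockout library (342 to 396 normalized reads) than in any control (1295 to 1682), whereas Cdk8 ranged from 294 to 429 against 408 to 466, and a gene total includes exons outside a floxed part. The macrophage genes Adgre1, Csf1r, Lyz2, Cd68 and Itgam were abundant in all 8 libraries, but of 10 macrophage markers 4 rose and 5 fell, among them Cd68 (log2 0.57) and Csf1r (-0.80). Over all genes tested, 22.9% were called higher and 23.8% lower, the shares to set beside the marker counts given here. Summed neutrophil markers (8 genes) spanned 1915 to 3373 in controls and 449 to 730 in double knockouts, and summed monocyte markers (8 genes) 2426 to 3002 and 603 to 720. Of 7 monocyte markers tested, 3 fell (Ccr2, F13a1 and Chil3), while Ly6c2 and Plac8 had log2 fold changes of 0.18 and 0.21 (not called). The part of these markers in the class II values was not tested. Double knockout libraries 1 and 2, and 3 and 4, were closer to each other (chi-square per gene 8.01 and 9.08) than across these pairs (19.2 to 26.4). Controls also differed in closeness, from 9.29 for 2 and 3 to 38.2 for 1 and 4, and the independence of libraries is not known in either group. In bulk RNA, fewer cells of a type and less RNA per cell cannot be told apart.

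The class II genes did not move as a block. Of the 9 members, 8 passed the filter on low values, a normalized read count of at least 10 in at least 4 libraries. Cd74 and H2-Aa rose, H2-DMa fell, and the other 5 did not pass the test (limma, Benjamini-Hochberg adjusted p under 0.05 over all 11675 genes tested). That is 37.5% of the tested members, against 46.6% of all genes tested, of which 22.9% were called higher and 23.8% lower. The median log2 fold change of the 8 was 0.35, against 0.01 for all genes. Groups did not overlap for 4 of the 8 (Cd74, H2-Aa, H2-Eb1 and H2-DMa), and for 42.9% of all genes tested. Log2 fold changes are double knockout over control as fitted on the log2(value + 1) scale, which understates changes of low genes. Values written as "-fold" are ratios of the mean normalized read counts, so the 2 can differ.

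**Figure D1:**
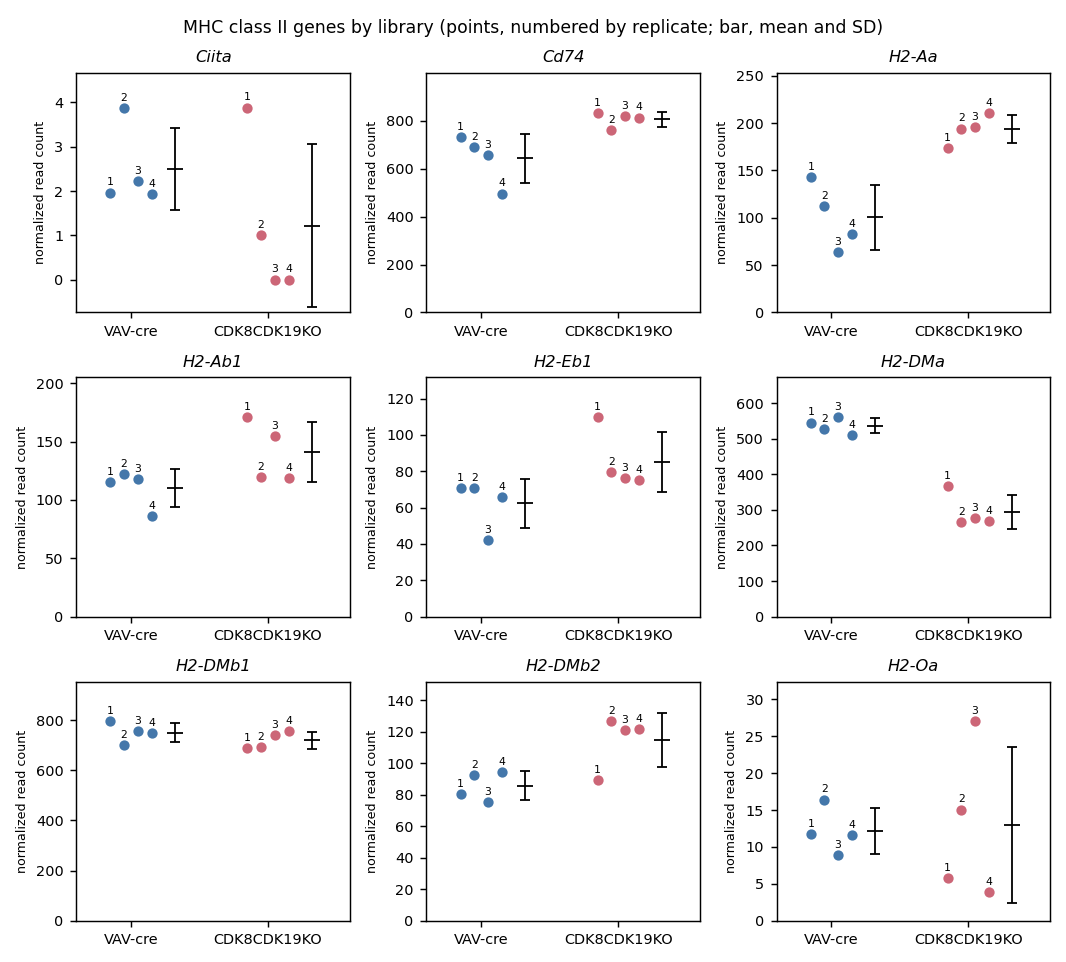
Normalized read count (vertical axis, linear) of each class II gene in the 4 VAV-cre and 4 CDK8CDK19KO libraries; points are libraries numbered by replicate and bars are the mean and SD. H2-Aa and Cd74 lie higher and H2-DMa lower in every double knockout library than in any control, while Ciita is near 0 in all.

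Ciita, on chromosome 16 (10480059 to 10528418, mm10), was barely read in either group. Control libraries held 1.97, 3.87, 2.22 and 1.93 normalized reads, and double knockouts 3.88, 1.01, 0 and 0. These are 10 reads in all controls together and 5 in all double knockouts, so the ranges overlap and no difference was detectable at this depth (exact permutation p = 0.229, two-sided). Ciita overlaps Dexi on the opposite strand, and no source used here says whether counting used strand.

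Cd74, the invariant chain gene, was read in every library at a level far above Ciita. It stood at 731, 690.3, 656 and 497 normalized reads in controls 1 to 4, against 833, 761, 820.3 and 814 in the double knockouts. Control 4 was the lowest library, and every double knockout lay above every control. The means were 643 ± 103 and 807 ± 31.7 (SD, n = 4 each), so the log2 fold change was 0.34 (SE 0.11, adjusted p = 0.0290). The call is near the threshold: adjusted p was 0.0508 without control replicate 3, 0.0662, 0.0622 and 0.0612 without double knockout replicates 1, 3 and 4, 0.0531 without limma's trend and robust options, and 0.111 with double knockouts averaged in the pairs named above.

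H2-Aa, the alpha chain of the H2-A molecule, showed the largest rise among the members. Controls 1 to 4 held 142.5, 112, 63.3 and 82.9 normalized reads, and double knockouts 174, 194, 196 and 210.5. Controls were spread more widely than double knockouts, without overlap between them. H2-Aa rose 1.93-fold, from 100.2 ± 34.6 to 194 ± 15.1 (log2 1.005, SE 0.22, adjusted p = 0.00327), and it passed the test in all 19 alternative analyses, with log2 fold changes of 0.81 to 1.195.

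H2-Ab1 encodes the beta chain that pairs with H2-Aa, and its change did not pass the test. Its values were 115, 122, 118 and 85.8 in controls and 171, 119.6, 155 and 119 in double knockouts. Double knockouts 2 and 4 lay within the control range and 1 and 3 above it. The log2 fold change was 0.35 with a 95% interval from -0.05 to 0.75 (adjusted p = 0.135).

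H2-Eb1, the beta chain of the H2-E molecule, held 70.8, 70.6, 42.2 and 65.6 in controls and 109.7, 79.4, 76.0 and 75.0 in double knockouts. The groups did not overlap, but control 3 was low and double knockout 1 stood above the other three. Its log2 fold change of 0.46 (95% interval -0.04 to 0.95) did not pass the test (adjusted p = 0.121). The alpha chain of H2-E, listed as H2-Ea and annotated as a polymorphic pseudogene, had no read in any library. A count of 0 allows up to 3 reads in a library, a limit that covers counting error only.

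H2-DMa, the alpha chain of the peptide exchange dimer H2-DM, was the only member called lower. Controls 1 to 4 held 545, 528, 560.4 and 511 normalized reads, and double knockouts 366, 265, 276 and 268. Controls lay close together, and double knockout 1 was higher than the other three, though still below every control. H2-DMa fell 1.82-fold, from 536 ± 21.4 to 294 ± 48.3 (log2 -0.88, SE 0.12, adjusted p = 8.28e-05), and passed the test in all 19 alternatives, at log2 -0.99 to -0.80. The annotated H2-DMa gene overlaps Brd2, CR974462.4 and Gm20493 on the opposite strand and CR974462.3 on the same strand. How reads were divided among them is not known.

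The beta chain genes of H2-DM did not fall with it. H2-DMb1 stood at 794, 699.9, 757 and 748 in controls and at 688, 692, 739 and 755 in double knockouts, with ranges that overlap. Its log2 fold change was -0.06 with a narrow 95% interval of -0.23 to 0.11 (adjusted p = 0.549). H2-DMb2 held 80.6, 92.8, 75.5 and 94.5 in controls and 89.3, 127, 121 and 122 in double knockouts. Double knockout 1 lay inside the control range and the others above it. H2-DMb2 had a log2 fold change of 0.41 (95% interval 0.02 to 0.79, adjusted p = 0.0762), and adjusted p was 0.0316 without double knockout replicate 1. The annotated transcripts of H2-DMb1 and H2-DMb2 share 517 runs of 31 bases, 31.4% of those of H2-DMb1 and 29.7% of those of H2-DMb2, so the division of reads between these copies is uncertain.

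H2-Oa, the alpha chain of the H2-O dimer, was low and scattered. Controls held 11.8, 16.4, 8.88 and 11.6 normalized reads, and double knockouts 5.83, 15.1, 27.0 and 3.90. The double knockouts surrounded the control range, and the 95% interval of the log2 fold change ran from -1.47 to 1.03 (adjusted p = 0.781), so its direction was not determined. Its partner H2-Ob, a class II gene outside the 9 members, was clearly lower. H2-Ob held 41.3, 53.2, 51.0 and 63.6 in controls and 7.77, 9.05, 7.00 and 29.2 in double knockouts. Double knockout 4 stood above the other three and below every control. H2-Ob fell 3.94-fold (log2 -2.12, SE 0.43, adjusted p = 0.00164). H2-Eb2, a further class II beta chain gene, had 3 reads in all controls and 5 in all double knockouts and was not tested.

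Levels of different genes were compared per kilobase of the principal annotated transcript. In controls the order was H2-DMb1 (534 ± 27.6 normalized reads per kilobase), Cd74 (456 ± 72.8), H2-DMa (323 ± 12.9), H2-Ab1 (90.8 ± 13.5), H2-Aa (88.8 ± 30.7), H2-DMb2 (60.3 ± 6.52), H2-Eb1 (37.3 ± 8.16), H2-Ob (19.6 ± 3.44) and H2-Oa (11.2 ± 2.88). Ranges of these neighbours overlapped for H2-DMb1 and Cd74, for H2-Ab1 and H2-Aa, and for H2-Aa and H2-DMb2, and for no other pair. In double knockouts Cd74 (572 ± 22.5) was above H2-DMb1 (512 ± 24.0) without overlap, but narrowly. The lowest Cd74 library was at 539.6 and the highest H2-DMb1 library at 537.9, and each gene has only 1 transcript length here. H2-DMa (177 ± 29.1) and H2-Aa (172 ± 13.4), whose ranges overlapped, came next. H2-Ab1 (116 ± 21.5), H2-DMb2 (80.55 ± 12.0) and H2-Eb1 (51.0 ± 9.91) followed. H2-Aa moved from near H2-Ab1 to near H2-DMa on this scale. Among 11386 tested genes with such a length, Cd74 stood at percentile 72.6 in controls and 77.2 in double knockouts, and H2-Aa at 31.9 and 48.6.

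Whether members changed by different factors was tested within each library as the log2 ratio of a member to Cd74. Relative to Cd74, H2-DMa fell by 1.22 and H2-DMb1 by 0.40 on the log2 scale, and H2-Aa was higher by 0.66, each without overlap between groups. Of the 7 ratios, 3 had an unadjusted p of 0.0286, the smallest that an exact permutation test of 4 against 4 gives (two-sided), and none passed after Benjamini-Hochberg adjustment over the 7 (0.0667 for each of the 3). An adjusted p under 0.05 needs most of the 7 ratios at that smallest p. The adjusted test thus could not single out a few members, and it does not show a common factor. The ratios of H2-Ab1, H2-Eb1 and H2-DMb2 to Cd74 differed between groups by 0.01, 0.11 and 0.07, less than their spread between libraries.

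Ratios between chains that form a dimer were added after the values had been seen. H2-DMa relative to H2-DMb1 was -0.54, -0.41, -0.43 and -0.55 (log2) in controls and -0.91, -1.38, -1.42 and -1.49 in double knockouts. All double knockouts lay below all controls, with a difference of -0.82 (exact permutation p = 0.0286, and 0.0571 adjusted over 4 ratios). Against H2-DMb2 the difference was -1.285, again without overlap. For H2-Aa relative to H2-Ab1 the difference was 0.65, and the groups overlapped (exact permutation p = 0.0571). H2-Oa relative to H2-Ob ranged from -2.63 to 1.81 in double knockouts and so covered the whole control range.

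**Figure D2:**
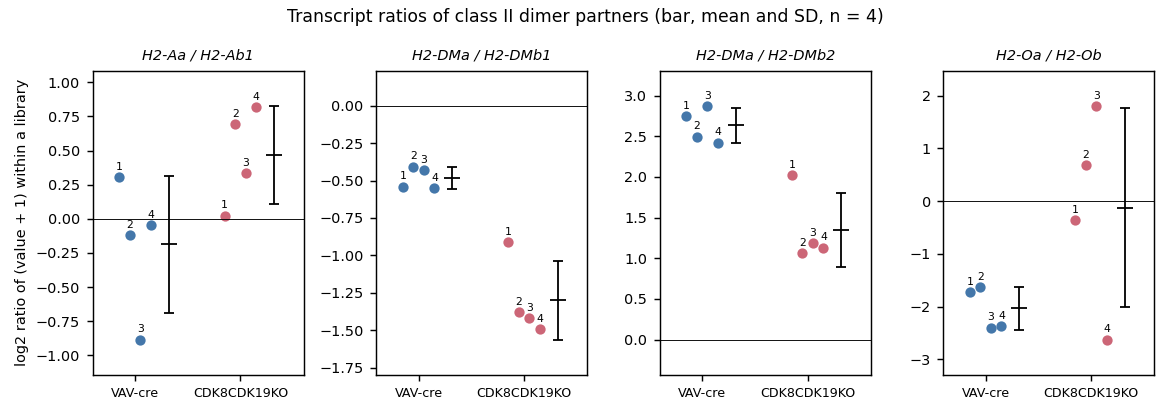
Log2 ratio of (value + 1) of paired class II chains within each library (vertical axes differ by panel); points are libraries numbered by replicate and bars are the mean and SD of 4. Both ratios with H2-DMa are lower in every double knockout library, and double knockout 1 lies closest to the controls.

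Of the members, 7 lie on chromosome 17 in the MHC region; with the 3 other class II genes listed here they span 34092340 to 34344645 (mm10). H2-DMa (34119541 to 34139101), which fell, and H2-DMb2 (34143307 to 34151555) and H2-DMb1 (34153072 to 34160230), which were not called, are close neighbours on the plus strand. H2-Aa (34282744 to 34287823) lies on the minus strand, beyond H2-Ab1 (34257689 to 34269419). Cd74 is on chromosome 18 (60803848 to 60812652). In the MHC region, H2-DMa, which fell, and H2-Aa, which rose, thus each lie beside members not called, and not beside each other.

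Class II promoters are known for an X box, bound by the RFX complex, followed downstream by a Y box, an inverted CCAAT element bound by NF-Y; the assembled factors recruit Ciita. RefSeq promoter windows of GRCm38.p6, from 250 bases before to 50 after a start, were matched for 6 of the 9 members. The letters AGNNAC directly followed by NGATG (X box), N being any base, and ATTGG (Y box) were searched on both strands and do not overlap each other in these windows. H2-Eb1 held an X match followed after 22 bases by a Y match, H2-DMb1 the same with 23 bases between them, and H2-Oa with 87. H2-Aa and H2-DMb2 held a Y match and no X match, although the H2-DMb2 window was 84.2% identical to that of H2-DMb1 over 247 aligned bases. H2-DMa has 2 listed starts: the window of one held neither, and that of the other a single Y match far upstream. Both H2-DMa windows lie inside the annotated gene, and the H2-DMb2 window (34144999 to 34145298) lies inside its own. Whether any of them holds the start of a principal transcript was not determined. Of all 32851 windows, 0.968% held the X letters, 37.4% the Y letters and 0.387% both. A match is a description of letters and not evidence of binding. Only these exact letters were searched, so a missing match does not show that an X or Y box is absent.

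Stretches of 100 bases upstream of the start are shown for a gene that rose, a gene with both elements, the member that fell and H2-Ob, to let their elements be compared, with X and Y matches in capitals. They run 5′ to 3′ on the strand of the gene, at chr17:34287839-34287938 (minus strand), chr17:34305752-34305851, chr17:34122717-34122816 and chr17:34238790-34238889 (plus strand) in that order.
H2-Aa: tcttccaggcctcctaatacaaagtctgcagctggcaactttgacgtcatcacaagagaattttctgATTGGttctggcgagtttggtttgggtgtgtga
H2-Eb1: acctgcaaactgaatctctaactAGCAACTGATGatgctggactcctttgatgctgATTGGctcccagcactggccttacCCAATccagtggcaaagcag
H2-DMa: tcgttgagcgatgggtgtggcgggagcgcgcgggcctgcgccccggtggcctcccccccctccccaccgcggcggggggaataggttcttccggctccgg
H2-Ob: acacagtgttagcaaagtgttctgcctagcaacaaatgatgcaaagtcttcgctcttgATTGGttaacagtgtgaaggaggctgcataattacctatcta
By these exact letters, H2-Aa, which rose, and H2-Ob, which fell, each show a Y match without an X match. The stretch of H2-DMa shows no match. It belongs to 1 of the 2 listed starts and lies inside the annotated gene, and the window of the other start held a Y match. It therefore may not be the promoter of the principal transcript. Near matches were not searched for.

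**Figure D3:**
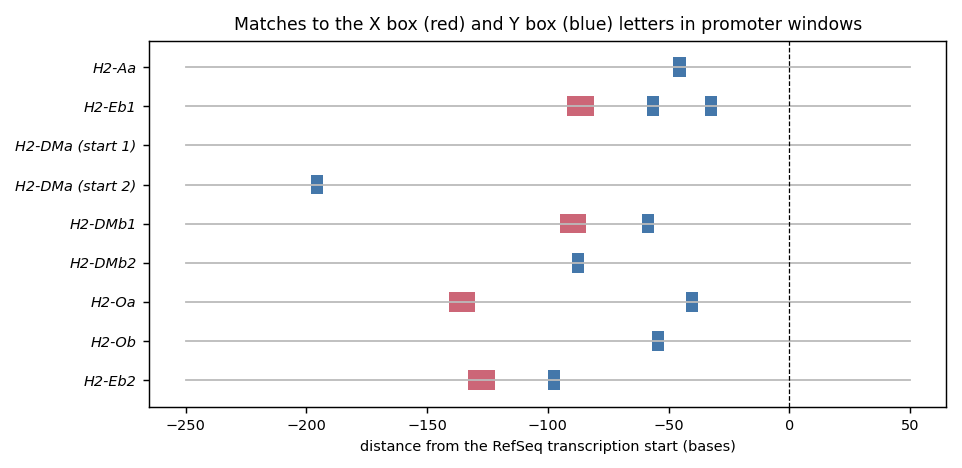
Matches to the X box letters (red) and Y box letters (blue) in RefSeq promoter windows of class II genes, by distance from the transcription start in bases (horizontal axis). X and Y matches stand close together in H2-Eb1, H2-DMb1 and H2-Eb2, further apart in H2-Oa, and only Y matches or none appear in the other windows.

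Of 7 tested factors that bind these boxes (Rfx5, Rfxap, Rfxank, Nfya, Nfyb, Nfyc and Creb1), none rose and only Nfyb fell. Over all genes tested, 22.9% rose and 23.8% fell. Nfyb, a subunit of NF-Y, stood at 486, 481, 532 and 479 in controls and at 438, 383, 404 and 427 in double knockouts (log2 -0.26, SE 0.09, adjusted p = 0.0315). That call was lost with the replicate number as a block (0.0765), without control replicate 2 or 3 (0.0505 and 0.0963), without double knockout replicate 2 or 3 (0.0827 and 0.0668), with double knockouts averaged in pairs (0.0874), under quantile normalization (0.110) and without a filter on low values (0.0559). Nfya had a log2 fold change of -0.15 (adjusted p = 0.0874), Creb1 of -0.17 (0.258) and Nfyc of -0.19 (0.262). Rfxank, a subunit of the RFX complex, lay in the other direction at 0.31, with a wide 95% interval of -0.20 to 0.83 (adjusted p = 0.301). The median over the list was -0.15.

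Genes on the route from interferon gamma to Ciita were split: 3 of 10 rose and 3 fell, near the shares over all genes (22.9% and 23.8%), and the median log2 fold change was -0.04. Ifngr1, the ligand-binding chain of the interferon gamma receptor, fell from 3724 ± 146 to 2249.6 ± 148 (log2 -0.73, adjusted p = 2.66e-06). Its control libraries lay between 3599.9 and 3926 and double knockouts between 2048 and 2389. Jak2, the kinase held by the other receptor chain, rose from 1193 ± 113 to 1585 ± 25.6 (log2 0.41, adjusted p = 0.000845). Spi1, which encodes the myeloid factor PU.1, fell from 9248 ± 553 to 7312 ± 278 (log2 -0.34, adjusted p = 0.000786), and Usf1, a factor of a Ciita promoter, rose (log2 0.30, adjusted p = 0.0103).

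Genes that interferon gamma induces did not move together. Of 9 tested, 1 rose and 2 fell, where 22.9% of all genes tested rose and 23.8% fell. Their median was -0.08 on the log2 scale. Cxcl10, a chemokine, was lower in every double knockout (86.7 to 162) than in any control (467 to 692), at log2 -2.19 (SE 0.19, adjusted p = 2.13e-06). Cd274, the checkpoint ligand PD-L1, rose from 238 ± 19.6 to 502 ± 37.6 (log2 1.07, adjusted p = 6.05e-06). Iigp1, an immunity-related GTPase, fell (log2 -0.42, adjusted p = 0.00962), whereas Irgm1 had a log2 fold change of 0.17 (adjusted p = 0.108).

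Genes of endosomal processing, most of them proteases that prepare peptides and trim the invariant chain, were read next. Of 9 tested, 6 rose and 1 fell, where 22.9% of all genes tested rose and 23.8% fell, and their median was 0.47 on the log2 scale. Ctsl, a cathepsin that cuts the invariant chain in some cells, held 36813, 38685, 37896 and 33723 in controls and 121426, 125349, 115544 and 117332 in double knockouts. All double knockouts were well above all controls (log2 1.71, SE 0.06, adjusted p = 1.34e-09). Lgmn, the asparaginyl endopeptidase, rose with a log2 fold change of 1.12 (adjusted p = 2.54e-08), Ctsz with 1.24 and Ctsh with 0.73. Ctss, the cathepsin best known for the last cuts of the invariant chain in dendritic cells and B cells, had a log2 fold change of -0.08 with a 95% interval from -0.20 to 0.03 (adjusted p = 0.219).

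The 3 listed genes that set how long class II stays at the surface were all called, 2 higher and 1 lower. Over all genes tested 46.6% were called, and a list of 3 is too short to compare with that share. Marchf1, a ubiquitin ligase that sends class II and CD86 to lysosomes, held 1595, 1627, 1911 and 2264 in controls and 661, 774, 544 and 632 in double knockouts. It fell 2.83-fold without overlap (log2 -1.50, SE 0.13, adjusted p = 2.18e-06). Cd83, a membrane protein known to oppose that ligase, held 122, 142, 139.8 and 132 in controls and 726, 719, 795 and 707 in double knockouts. Cd83 rose 5.50-fold (log2 2.45, SE 0.10, adjusted p = 4.23e-09). Marchf8, a ligase related to Marchf1, rose from 1506 ± 107 to 2471 ± 109.6 (log2 0.72, adjusted p = 5.63e-06). Surface protein was not measured here.

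**Figure D4:**
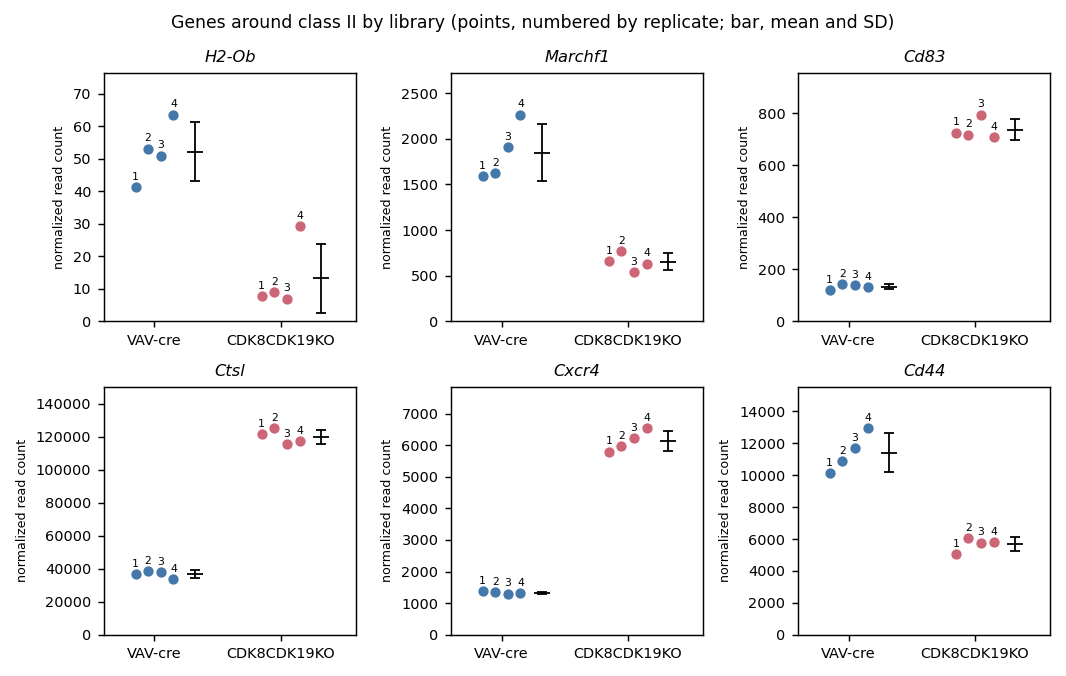
Normalized read count (vertical axis, linear) of H2-Ob, Marchf1, Cd83, Ctsl, Cxcr4 and Cd44 in the 4 VAV-cre and 4 CDK8CDK19KO libraries; points are libraries numbered by replicate and bars are the mean and SD. The groups do not overlap for any of the 6 genes, which fall in the case of H2-Ob, Marchf1 and Cd44 and rise for the others.

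Costimulatory genes, whose products act beside class II on T cells, gave 1 rise and 1 fall among 4 tested. These counts are near the shares over all genes (22.9% and 23.8%), and the median log2 fold change was -0.14. Cd86 held 176, 191, 195 and 210.2 in controls and 248, 238, 263 and 371 in double knockouts, the last standing above the others (log2 0.51, SE 0.15, adjusted p = 0.0156). Icosl, the ligand of ICOS, fell from 1055 ± 39.6 to 607 ± 52.6 (log2 -0.80, adjusted p = 9.67e-06). Cd40 had a log2 fold change of -0.31 (adjusted p = 0.0558) and Cd80 of 0.03 (0.921).

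CD74 protein also acts at the surface as a receptor for the cytokine MIF, with CD44 and CXCR4 as partners. Of 5 ligand and partner genes tested, 2 rose and 1 fell, where 22.9% of all genes tested rose and 23.8% fell. Cxcr4 rose from 1332 ± 33.2 to 6139.5 ± 325 (log2 2.20, adjusted p = 2.87e-10). Cd44 fell from 11417 ± 1221 to 5675 ± 436 (log2 -1.01, adjusted p = 1.63e-06). Mif rose from 1846 ± 156 to 2455 ± 234 (log2 0.41, adjusted p = 0.00196), and Ddt, a relative of Mif, had a log2 fold change of 0.21 (adjusted p = 0.167). Over all 48 tested genes of the 8 pathway lists, 15 rose and 11 fell, with a median of -0.04. That is 54.2% called, near the 46.6% of all genes tested.

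**Figure D5:**
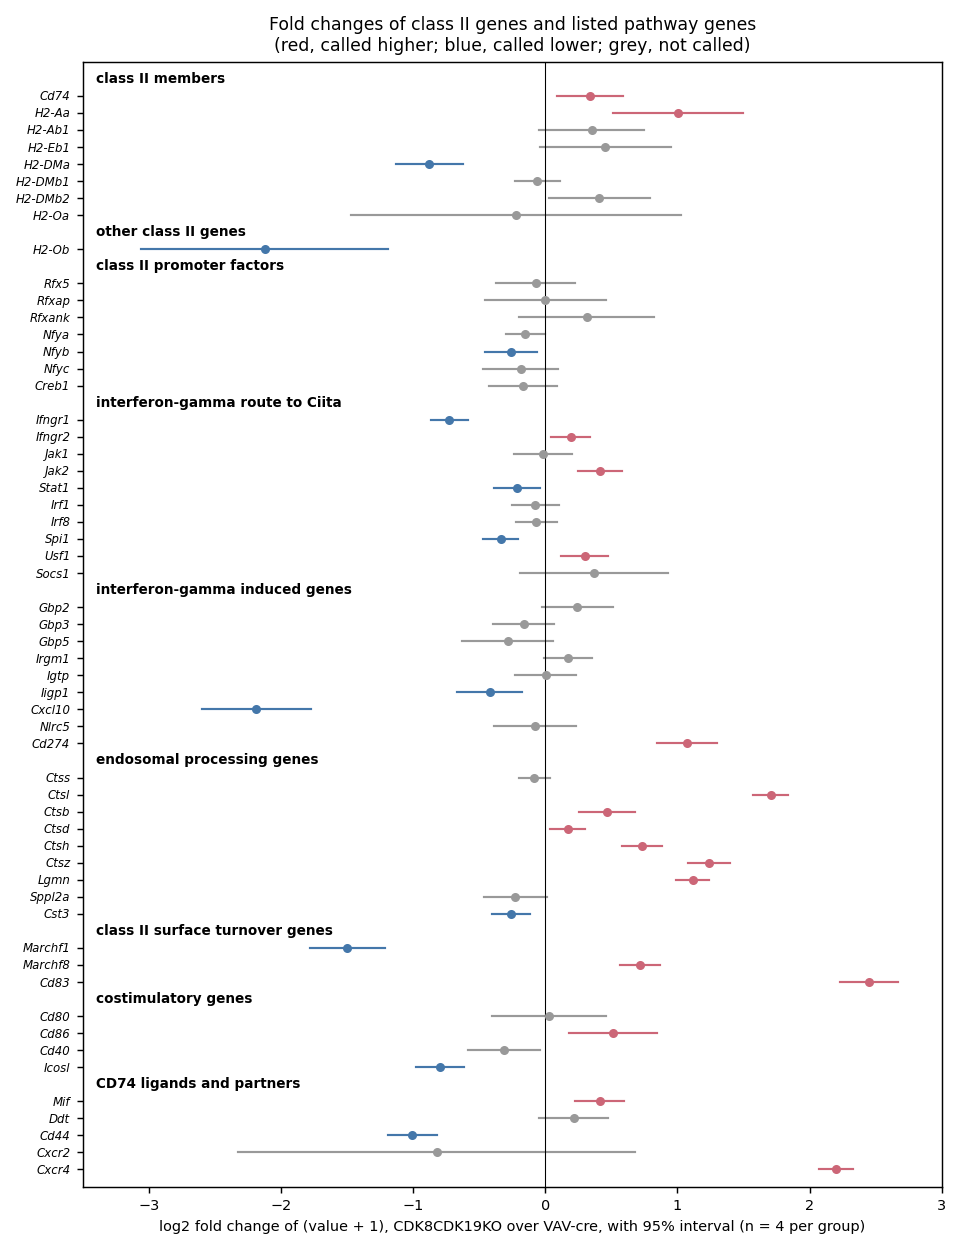
Log2 fold change of (value + 1), CDK8CDK19KO over VAV-cre, with 95% intervals (horizontal axis, n = 4 per group) for the 8 tested members and the 48 tested genes of the pathway lists; red is called higher, blue called lower and grey not called. Members lie between -0.88 and 1.005, while H2-Ob, Cxcl10, Cd83 and Cxcr4 lie beyond 2 in either direction.

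Markers of other cells that carry class II were read beside these values. Of 12 dendritic cell markers 3 were tested, and the list summed to 469 to 524 in controls and 482 to 574 in double knockouts. Itgax made up most of these sums, with means of 274 in controls and 466 in double knockouts, so they do not describe the other markers. Among the markers not tested, Flt3 spanned 2.22 to 9.67 in controls and 0 to 1.01 in double knockouts, without overlap. Dpp4 went the other way without overlap (means 2.29 and 5.89). Zbtb46 was at most 6.75 in any library, Batf3 at most 26.04 and Ccr7 at most 16.7, and Cd209a was at 0 in all. Itgax, an integrin shared with macrophages, rose (log2 0.77, adjusted p = 0.000349), Cd207, the lectin langerin, fell (log2 -4.61, adjusted p = 9.50e-06), and Xcr1 had a log2 fold change of -0.17 (adjusted p = 0.623). Cd207 had a mean of 136 in controls and 5.67 in double knockouts, and Xcr1 lay between 30.2 and 58.97 in all libraries. Of 12 B cell markers, Blk and Fcer2a were among those at 0 in every library, and the list summed to 247 to 308 in controls and 123 to 207 in double knockouts. Both tested B cell markers fell, Cd79b at log2 -1.38 (adjusted p = 6.34e-05) and Ighm at -0.60 (adjusted p = 0.0364), where 23.8% of all genes tested fell. The part of such cells in the class II values was not tested. Of 8 T cell markers 6 were at 0 in every library, as were 4 of 6 NK cell markers.

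Genes most like the rising members were ranked by Pearson's r, over the 8 libraries, with the mean log2 value of Cd74 and H2-Aa, among 10010 genes with a mean of at least 50. They were Dnajb6 (r = 0.996), Rassf8 (0.991), Phospho1 (0.988), Srp9 (0.985) and Coasy (0.984). With group means subtracted, the closest were Phospho1 (0.989), Dnajb6 (0.985), Gcsh (0.983), Immp1l (0.9785) and Rassf8 (0.9745). Gcsh was itself lower in double knockouts (log2 -0.35, adjusted p = 0.00319), while the other genes of these rankings were called higher. These correlations are the highest of many over few libraries and are given without a test.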

How the data were processed

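RNA of 8 samples was selected for polyadenylated transcripts and sequenced as read pairs of 150 bases, per the labels' protocols. Salmon 1.4.0 and DESeq2 were used with build mm10, per the submitters' processing notes. No source used here gives the annotation, gene-level import, filters or strand. The authors deposited a signal, 1 normalized read count per gene and library. Multiplying by a size factor per library (0.901 to 1.04) returned whole reads for 100% of values, within 0.01. Recovered reads gave the depth and the count tests used as alternatives.

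The 11675 genes that reached 10 in 4 or more libraries were transformed to log2(value + 1) and tested between genotypes in limma 3.58.1 (R 4.3.3, robust and trend options, two-sided), with Benjamini-Hochberg adjustment over all of them and a threshold of 0.05. The fit was checked on simulated data with independent libraries, few changed genes and the same spread setting for all genes. That check does not cover close library pairs or a large share of changed genes, as seen here. Ratios were compared by exact permutation over 70 regroupings. Alternatives changed the pseudocount, filter, options, scaling and replicates, or used edgeR 4.0.16 (2593 genes higher, 2786 lower) and DESeq2 1.42.0 (2787 and 2891). Positions, transcript lengths and overlaps are from GENCODE M21, and promoters from RefSeq.

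The members and gene lists were chosen with earlier results of these data known. Named genes are all members, up to 4 tested genes of smallest adjusted p per pathway list, the targeted genes and the 5 most alike by each ranking; Ctss, the RFX subunits, H2-Ea, H2-Eb2 and cell markers were named after their values were seen, and 1 listed marker is not reported here. Whether replicates are separate animals or cultures is not labelled: p-values then reflect only differences among these libraries, possibly technical ones.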

Additional observations from a re-analysis of the deposited data

Results flagged for a closer look

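In 6 of 74 groups of 4 libraries, the highest or lowest library stood further from the rest than Dixon's 95% limit; chance gives about 1 in 20 groups. Double knockout 1 was such a library for 3 members: it was highest for H2-Eb1 (109.7 normalized reads) and H2-DMa (366) and lowest for H2-DMb2 (89.3). For H2-DMa and H2-DMb2 it was the double knockout closest to the controls, and for H2-Eb1 the one farthest from them. H2-Ob was highest in double knockout 4 (29.2). Ciita was highest in control 2 (3.87, which is 4 reads), and Nfyb in control 3 (532).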

How the results depend on the processing

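Of 36 named genes with alternatives, 26 kept their direction and their side of the threshold in every alternative run, among them H2-Aa, H2-DMa, H2-Ob, Ctsl, Cd83 and Marchf1. The number of members called higher, 2, became 5 under quantile normalization, where H2-Ab1, H2-Eb1 and H2-DMb2 were added (adjusted p = 0.0332, 0.0448 and 0.0196), and 1 with double knockouts averaged in pairs. Leaving out 1 library gave 1 to 2, with 1 (H2-Aa) without control 3 or double knockout 3 or 4. Without the trend and robust options, or without double knockout 1, it was 2 with H2-DMb2 in place of Cd74. The number called lower was 1 throughout. H2-Oa changed sign without double knockout 1 (0.01) or 4 (0.17) and with edgeR (0.075) and DESeq2 (0.085), its range without 1 library being -0.67 to 0.17. Cd80 changed sign without control 1 (-0.04) or double knockout 1 (-0.05) or 2 (-0.071), with a range of -0.071 to 0.18. None of these was called. The H2-Ab1 to Cd74 ratio differed by -0.0091 with a pseudocount of 10. Cd40 passed the test without control 1 (adjusted p = 0.0270), without double knockout 3 (0.0394) and with edgeR (0.0495) and DESeq2 (0.0419), and Nfya without control 1 (0.0186). The cause of these changes was not tested. Scalings moved the median of all genes by at most 0.05.

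Replicate numbers did not pair the samples: same-numbered libraries had correlations of -0.0535 to 0.0316. With the replicate number as a block, 2 members were called higher and 1 lower, 13 and 9 of the pathway genes, and 2215 and 2434 of all genes. Ratios to Cd74 were also tested without each library in turn, an alternative added after seeing the data. None of these 56 exact permutation tests passed after adjustment over the 7 ratios (lowest adjusted p = 0.0667), and 15 had an unadjusted p of 0.0286, the smallest that 3 against 4 gives. With that smallest p, a few ratios alone could not pass after adjustment here either. The differences ranged from -0.072 to 0.0902 for H2-Ab1, from -0.073 to 0.27 for H2-Eb1 and from -0.028 to 0.23 for H2-DMb2, so their sign depends on single libraries. Depth limits Ciita, H2-Oa and H2-Eb2, which had 15, 101 and 8 reads in all.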
